A study of Mus musculus with 2 samples.

Results

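The regions described are 545 USF1 peaks in CH12.LX cells that lay away from gene starts and held a binding site for AP-1. They were chosen by sequence and position from 10624 peaks in mm9: the peak's summit lay over 1 kb from every protein-coding transcript start, and the window of 50 bp on each side of it held TGACTCA or TGAGTCA, which are the same 7-base site read on opposite strands. Of the 10624 peaks, 7542 were distal by this limit, and 6997 of these held no AP-1 site and served for comparison. The 545 made up 7.23% (95% Wilson interval 6.66 to 7.83) of distal peaks, and 75 of the 3082 peaks nearer to a start held the site as well. The data are ChIP-seq with a USF1 antibody on CH12.LX, an immortalized line of B-cell lymphoma; the mouse strain is B10.H-2aH-4bp/Wts, the labels name no treatment, and there is 1 group of 2 biological replicates. Whether the replicates are separate cultures is not said. The labels name possible control experiments, which were not used here. Each peak's signal is the authors' own value, on a scale that is not given, and the mm9 list was made from both replicates, so a peak has 1 signal and no replicate error. How many reads stand behind each peak is unknown. Nothing here measures expression, so the B-cell origin of the line was not checked against its markers.

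USF1 is a basic helix-loop-helix leucine zipper factor that binds DNA as a dimer, with itself or with USF2, at the palindromic E-box CACGTG, called canonical here. It also binds CACATG, which differs at the centre and is called the CA-centred E-box. AP-1 is a family of basic leucine zipper dimers of FOS, JUN, ATF and BATF proteins. It binds the TPA response element, TGACTCA, and drives genes that respond to stimulation; in B cells, BATF and JUN proteins also bind together with the lymphoid factors IRF4 and IRF8. The end of an E-box, TG, is also the start of an AP-1 site, so both sites can share 2 bases and form one run of 11.

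The shared run held more peaks than any single gap between the sites. In 220 of the 545 peaks (40.4%, 36.3 to 44.5) an AP-1 site shared 2 bases with an E-box, in 250 both sites were present without a shared base, and 75 had no E-box of either kind within 50 bp. The sequences that follow are the plus strand of mm9 in these windows, taken from the NCBIM37 genome, with AP-1 sites and E-boxes in capitals. The first set holds the 4 strongest peaks in which a canonical E-box ran into the AP-1 site, each named by its nearest protein-coding gene.
AI480653, chr16:31067002-31067102: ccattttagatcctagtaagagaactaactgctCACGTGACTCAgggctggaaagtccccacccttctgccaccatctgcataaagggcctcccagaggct
Ksr1, chr11:78943430-78943530: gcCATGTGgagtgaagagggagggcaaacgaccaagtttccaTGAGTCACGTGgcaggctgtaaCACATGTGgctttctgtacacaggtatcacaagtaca
Dusp22, chr13:30725080-30725180: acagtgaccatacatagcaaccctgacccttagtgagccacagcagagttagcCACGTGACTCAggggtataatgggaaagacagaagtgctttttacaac
Mettl14, chr3:123059647-123059747: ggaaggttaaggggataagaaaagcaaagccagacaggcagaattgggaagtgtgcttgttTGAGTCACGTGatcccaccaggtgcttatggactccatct

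The second set holds the 4 strongest in which a CA-centred E-box did so. The window nearest Fbxo11 carried this run at 2 places, and the one nearest Tnfrsf13b had an E-box running into the AP-1 site from each side.
Rftn1, chr17:50349353-50349453: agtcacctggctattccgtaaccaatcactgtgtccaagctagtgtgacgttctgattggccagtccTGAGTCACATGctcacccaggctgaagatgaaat
Fbxo11, chr17:88594769-88594869: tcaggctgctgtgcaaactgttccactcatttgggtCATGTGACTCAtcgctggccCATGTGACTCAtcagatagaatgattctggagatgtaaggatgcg
Arhgap25, chr6:87484954-87485054: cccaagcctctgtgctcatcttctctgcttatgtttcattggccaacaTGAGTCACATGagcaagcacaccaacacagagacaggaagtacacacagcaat
Tnfrsf13b, chr11:60936521-60936621: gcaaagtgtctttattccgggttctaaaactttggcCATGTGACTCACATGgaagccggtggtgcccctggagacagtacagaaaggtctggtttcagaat

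The third set shows the other arrangements at strong peaks. Near Vil1, Actr2 and Ninj2 a canonical E-box stood 7 or 8 bases from the AP-1 site, near Zfp362 a CA-centred E-box stood 34 bases away, and the window in Cabp1 had neither E-box. In that last window the AP-1 site ran on into CACCTG, another E-box hexamer.
Vil1, chr1:74484755-74484855: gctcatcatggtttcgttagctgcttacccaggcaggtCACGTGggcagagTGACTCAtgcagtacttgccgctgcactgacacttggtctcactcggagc
Actr2, chr11:19935522-19935622: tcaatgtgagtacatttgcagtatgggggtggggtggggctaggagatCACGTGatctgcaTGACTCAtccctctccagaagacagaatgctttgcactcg
Ninj2, chr6:120033015-120033115: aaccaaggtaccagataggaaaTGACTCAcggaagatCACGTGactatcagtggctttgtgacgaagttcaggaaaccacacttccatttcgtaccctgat
Zfp362, chr4:128488776-128488876: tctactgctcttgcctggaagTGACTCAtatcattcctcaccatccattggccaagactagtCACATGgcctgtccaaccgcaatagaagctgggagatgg
Cabp1, chr5:115634913-115635013: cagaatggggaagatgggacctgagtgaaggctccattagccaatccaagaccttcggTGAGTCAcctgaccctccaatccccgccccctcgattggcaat

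These peaks differed from other distal peaks in which E-box they held. The canonical E-box was present in 224 of 545 (41.1%, 37.1 to 45.3), against 3686 of 6997 distal peaks without an AP-1 site (52.7%, 51.5 to 53.9) and 51.8% of all distal peaks. The odds ratio was 0.627 (Fisher's exact test, adjusted p = 2.7e-06). The CA-centred E-box without the canonical one was present in 246 (45.1%, 41.0 to 49.3), against 36.7% (35.6 to 37.9) of the peaks without an AP-1 site and 37.3% of all distal peaks. Here the odds ratio was 1.42 (Fisher's exact test, adjusted p = 6.6e-04). Neither E-box was found in 75 (13.8%, 11.1 to 16.9), against 10.6% (9.9 to 11.4) and 10.8% of all distal peaks, and this difference did not pass (odds ratio 1.35, Fisher's exact test, adjusted p = 0.105). These p-values are adjusted over the 12 shares compared between both kinds of distal peak, and the tests treat peaks as independent. Among only the peaks above the median signal of the mm9 list, the CA-centred share no longer passed (odds ratio 1.41, Fisher's exact test, adjusted p = 0.0589). With windows of 100 bp on each side the share with neither E-box passed (odds ratio 1.57, Fisher's exact test, adjusted p = 0.00113).

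**Figure D1:**
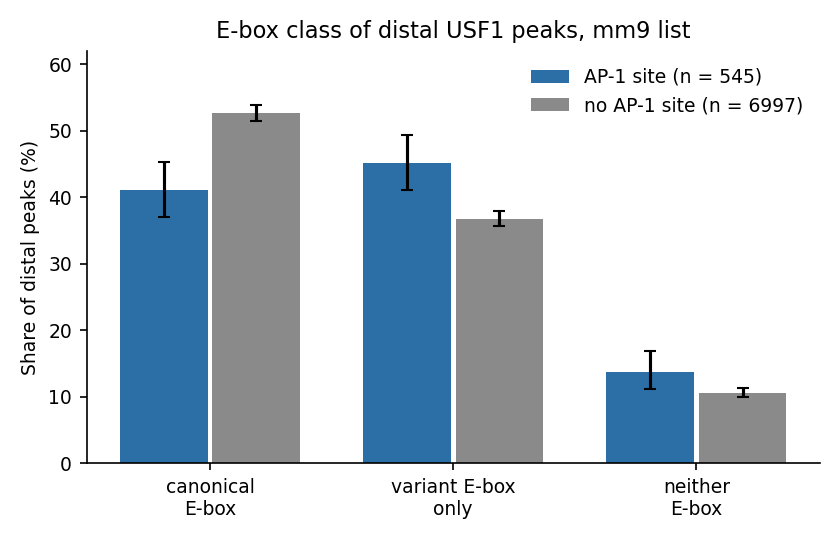
Share of distal USF1 peaks (%) with the canonical E-box, with only the variant (CA-centred) E-box and with neither within 50 bp of the summit, for 545 peaks with an AP-1 site and 6997 without; bars start at 0 and error bars are 95% Wilson intervals. The canonical share is lower with an AP-1 site (41.1% against 52.7%) and the variant share is higher (45.1% against 36.7%).

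Much of the E-box content of these windows lay in the shared run itself. When only E-box copies that shared no base with an AP-1 site were counted, 149 of 545 windows (27.3%, 23.8 to 31.2) held the canonical E-box and 142 (26.1%, 22.6 to 29.9) only the CA-centred one. That left 254 (46.6%, 42.5 to 50.8) with neither, against 10.6% of distal peaks without an AP-1 site. This count removes copies from windows with an AP-1 site only. On it the CA-centred share was lower than in the other distal peaks, not higher (odds ratio 0.607, Fisher's exact test, adjusted p = 1.6e-06).

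The distance between both sites was concentrated at the shared run. Of the 470 peaks with an AP-1 site and an E-box, 220 (46.8%, 42.3 to 51.3) had 2 bases in common between the nearest pair, 76 with a canonical and 144 with a CA-centred E-box. In windows centred 500 bp on either side of distal summits, 31 held both sites and 5 of these shared bases (16.1%, 7.1 to 32.6). The odds ratio was 4.58 (Fisher's exact test, p = 6.8e-04). This difference rests on few control windows. It did not pass with windows of 25 bp on each side (odds ratio 4.91, Fisher's exact test, p = 0.0595) or in peaks above the median signal (odds ratio 2.44, Fisher's exact test, p = 0.226). Nor does it allow for the bases that follow an E-box at USF1 summits. CACGTGAC, which can go on into the AP-1 site, lay at distal summits at 10.1% of its genome copies, and CACGTGAG at 0.931%. A preference for the shared run beyond that flank was therefore not tested by this comparison.

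Where the sites were apart, no single spacing stood out by count. The 250 such peaks had a median of 17 bases between the sites, with 36 peaks at 0 to 5 bases, 82 at 6 to 15, 69 at 16 to 30 and 63 at over 30. The gap with the most peaks was 8 bases, with 14. Both kinds of E-box were found in every class, canonical and CA-centred in 21 and 15, 45 and 37, 36 and 33, and 30 and 33 peaks, from the shortest gaps to the longest.

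**Figure D2:**
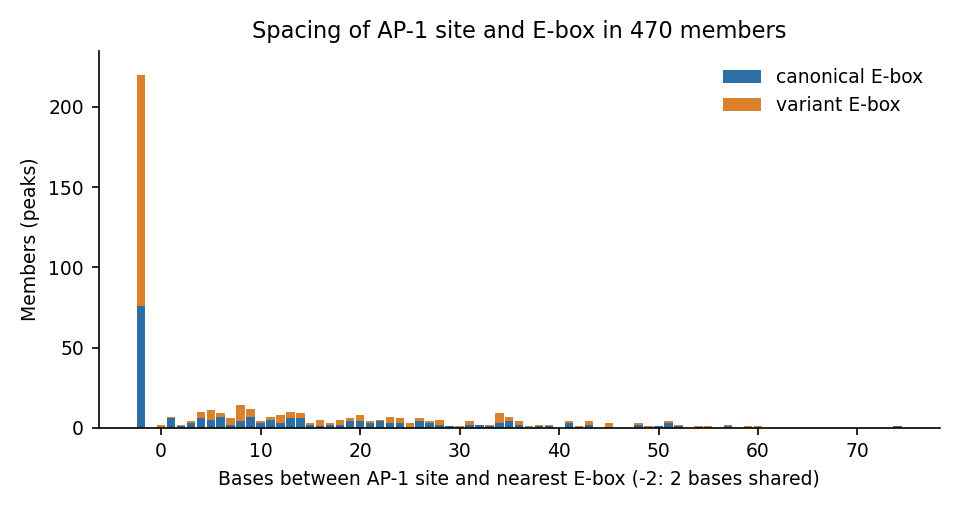
Number of peaks by the bases between the AP-1 site and the nearest E-box, in 470 distal peaks that hold both, stacked by canonical and variant (CA-centred) E-box; -2 on the axis is the shared run. The bar of the shared run holds 220 peaks, and no gap of 0 or more bases holds over 14.

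The shared run came in one form far more than the other. After the E-box, the 2 possible AP-1 sites begin with AC or AG. CACGTGACTCA was present in 74 of the 545 windows and CACGTGAGTCA in 2. The CA-centred E-box is not a palindrome and can face the AP-1 site either way. CATGTGACTCA was present in 90 windows and CACATGACTCA in 49, while the forms with AG, CATGTGAGTCA and CACATGAGTCA, were present in 5 each. The genome itself is less uneven: on the chromosomes with peaks it holds 661 copies of CACGTGACTCA and 461 of CACGTGAGTCA.

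Genome copies of the AC forms lay at distal USF1 summits more often than those of the AG forms. Of the 661 copies of CACGTGACTCA, 75 (11.3%, 9.1 to 14.0) lay within 50 bp of a distal summit, against 2 of 461 copies of CACGTGAGTCA (0.434%, 0.119 to 1.57). For CATGTGACTCA the share was 3.70% (3.03 to 4.51) of 2512 copies, and for CACATGACTCA it was 2.36% (1.80 to 3.09) of 2158. Their AG forms stood at 0.289% and 0.269%. For scale, 1.56% of all 262836 genome copies of CACGTG, 0.161% of those of CACATG and 0.138% of the 419021 AP-1 copies lay in such windows.

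The forms with AC also lay at summits more often than those with AG when all copies of the stem were counted, those that go on into an AP-1 site included. CACGTGAC, of any continuation, lay at a distal summit at 10.1% (9.8 to 10.5) of its 26887 copies, and CACGTGAG at 0.931% (0.826 to 1.05) of 28459. Among the 64 possible 3-base continuations of CACGTGAC, TCA, which completes the AP-1 site, ranked 21 by share at distal summits, and CCG ranked first with 18.9% (14.0 to 25.1) of 190 copies. After CATGTGAC the continuation TCA ranked 9, with 3.70% against 1.96% (1.88 to 2.05) for all 108411 copies of that stem, and CGG ranked first with 6.61% (4.04 to 10.6) of 227 copies.

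Whether the AP-1 letters follow bound E-boxes more than nearby ones was tested on these stems. After a CA-centred E-box and AC, TCA followed in 144 of 3585 copies within 50 bp of distal summits (4.02%, 3.42 to 4.71) and in 23 of 1111 copies 250 to 1000 bp away (2.07%, 1.38 to 3.09), which passed (odds ratio 1.98, Fisher's exact test, adjusted p = 0.00625). After a canonical E-box and AC it followed in 75 of 2714 (2.76%, 2.21 to 3.45) and in 2 of 194 (1.03%, 0.28 to 3.68), which did not pass (odds ratio 2.73, Fisher's exact test, adjusted p = 0.320). After a CA-centred E-box and AG it followed in 10 of 286 and 19 of 1196 copies (odds ratio 2.24, Fisher's exact test, adjusted p = 0.106), and after a canonical E-box and AG in 2 of 264 and 3 of 190 (odds ratio 0.476, adjusted p = 0.654). The p-values are adjusted over the 4 stems. These tests treat E-box copies as independent, though some windows held several. With windows of 25 bp the CA-centred stem with AG passed as well (odds ratio 2.77, Fisher's exact test, adjusted p = 0.0432).

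Seen from the AP-1 site, USF E-boxes were its most frequent partners at summits. Of 580 AP-1 copies in the windows, 99 (17.1%, 14.2 to 20.4) shared bases with CATGTG read towards the AP-1 site, 78 (13.4%, 10.9 to 16.5) with CACGTG and 56 (9.66%, 7.51 to 12.3) with CACATG. Among 2178 AP-1 copies 250 to 1000 bp from the same summits, those shares were 1.15%, 0.230% and 0.781%. The next hexamers, CAGGTG at 3.28% and CAGCTG at 2.76%, stood at 1.56% and 1.42% away from summits. CATTTG and CAGTTG partnered 0 of the 580 copies, with intervals up to 0.658%. The summits are those of USF1, and 51.8% of all distal windows held the canonical E-box and 37.3% only the CA-centred one. This comparison does not allow for that, so a preference of AP-1 sites for these E-boxes was not tested by it.

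AP-1 sites that shared no base with an E-box were also more frequent at the summits. Such a site was present in 338 of 7542 distal windows (4.48%, 4.04 to 4.97) and in 137 windows 500 bp upstream (1.82%, 1.54 to 2.14). It was at the summit alone in 331 peaks and upstream alone in 130 (exact McNemar test, p = 2.8e-21). In bins of 25 bp on both sides of all distal summits there were 199 such copies within 25 bp, 166 at 25 to 49 bp and 124 at 50 to 74 bp. From 75 to 249 bp there were 78 to 110 a bin, and beyond 250 bp from 65 to 87. Copies that shared bases with an E-box were more tightly placed, with 192 within 25 bp, 40 at 25 to 49 bp and at most 6 in any bin beyond. Such copies lie where an E-box lies, and the summits are those of USF1, so their closer placement does not bear on AP-1 binding. The counts are over all distal USF1 peaks, which were taken by distance from a start alone, and not over the 545.

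**Figure D3:**
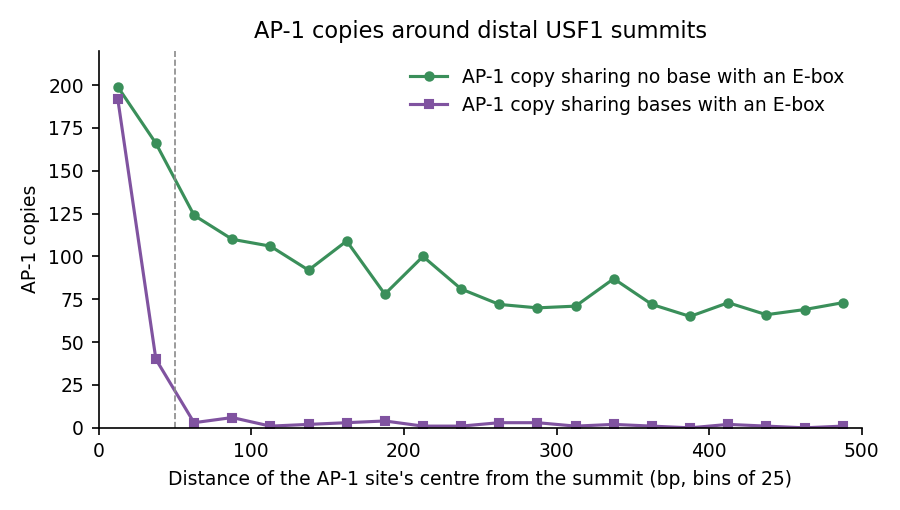
Number of AP-1 copies against the distance of their centre from the summit (bp, bins of 25, both sides pooled) around all 7542 distal USF1 summits, for copies that share bases with an E-box and copies that do not; the dashed line marks 50 bp. Copies sharing bases drop from 192 to 40 between the first 2 bins and stay at or below 6 after, while the others decline from 199 to between 65 and 87 beyond 250 bp.

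The share of peaks whose AP-1 copies all lay outside a shared run was highest where no E-box was present. Such peaks, which leave out any with a shared run beside another AP-1 copy, made up 9.18% (7.39 to 11.4) of the 817 distal peaks with neither E-box, 3.61% (3.07 to 4.24) of the 3910 with the canonical E-box and 3.87% (3.22 to 4.65) of the 2815 with only the CA-centred one. The shared run was found in 137 of those 2815 peaks (4.87%, 4.13 to 5.72) and in 83 of the 3910 (2.12%, 1.72 to 2.62). A window with neither E-box cannot hold a shared run, so all its peaks with an AP-1 site count in the first comparison. With any AP-1 site counted, the shares were 9.18% with neither E-box, 8.74% (7.75 to 9.84) with only the CA-centred one and 5.73% (5.04 to 6.5) with the canonical one. These shares are given as a description, with no test.

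The summit lay nearer to the E-box than to the AP-1 site where the sites were apart. It did so in 180 of 250 peaks (72.0%, 66.1 to 77.2, exact binomial test against an even split, p = 2.4e-12). The rule required the AP-1 site only to lie within 50 bp of the summit, and the summits are those of USF1, which binds E-boxes. An even split is therefore no neutral expectation, and the p-value does not bear on AP-1 binding. The median distance from the summit was 11.5 bp for the E-box and 22.5 bp for the AP-1 site. With a canonical E-box the summit was nearer to the E-box in 100 of 132 peaks (75.8%), and with a CA-centred one in 80 of 118 (67.8%). In the 75 peaks with no E-box the AP-1 site lay at a median of 16 bp from the summit, and in 28% of them within 10 bp. In shared runs with a canonical E-box the AP-1 site lay within 10 bp in 52.6%.

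USF1 signal overlapped widely between distal peaks with and without an AP-1 site. Its median was 59.9 in the 545 peaks (quartiles 38.8 and 115, range 29.0 to 2381) and 55.8 in the 6997 other distal peaks (quartiles 38.3 and 106). Of the 545, 289 (53.0%, 48.8 to 57.2) exceeded the median of all distal peaks, which by its definition is exceeded by 50% of them, against 49.8% (48.6 to 50.9) of the peaks without an AP-1 site. The difference of 3.26 percentage points did not pass (Fisher's exact test, odds ratio 1.14, adjusted p = 0.309). Within the canonical class the shares were 58.9% and 53.2% (adjusted p = 0.268), within the CA-centred class 52.0% and 48.7% (adjusted p = 0.489), and within peaks with neither E-box 38.7% and 36.7% (adjusted p = 0.875), each by Fisher's exact test. Among peaks above the median of the whole list, the direction turned in the canonical class and with neither E-box (odds ratios 0.941 and 0.964, neither passing). In 5 equal bins of signal, the strongest first, the AP-1 site was present in 7.36%, 7.76%, 7.29%, 6.76% and 6.96% of distal peaks, with intervals that overlapped throughout. The shared run was present in 3.78% (2.93 to 4.87) of the strongest bin and in 2.45% to 3.11% of the others. Peaks whose AP-1 copies all lay outside a shared run went the other way. They made up 3.58% (2.75 to 4.64) of the strongest bin and 4.17% to 5.31% of the others. For both, the interval of the strongest bin overlapped that of every other bin, and neither was tested.

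Among the arrangements, signal was lowest where no E-box was present. The median was 64.6 for a shared run with a canonical E-box, 62.6 for a canonical E-box apart, 61.3 for a shared run with a CA-centred E-box, 57.5 for a CA-centred E-box apart and 47.6 with no E-box. The upper quartile was 193 for the shared run with a canonical E-box and between 83.3 and 119 for the other 4 arrangements. All 5 overlapped widely, and these values are a description with no test. Distal peaks without an AP-1 site had the same order by E-box. Their medians were 59.8 with the canonical E-box, 54.5 with only the CA-centred one and 46.3 with neither. The lower signal without an E-box was thus not particular to peaks with an AP-1 site.

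**Figure D4:**
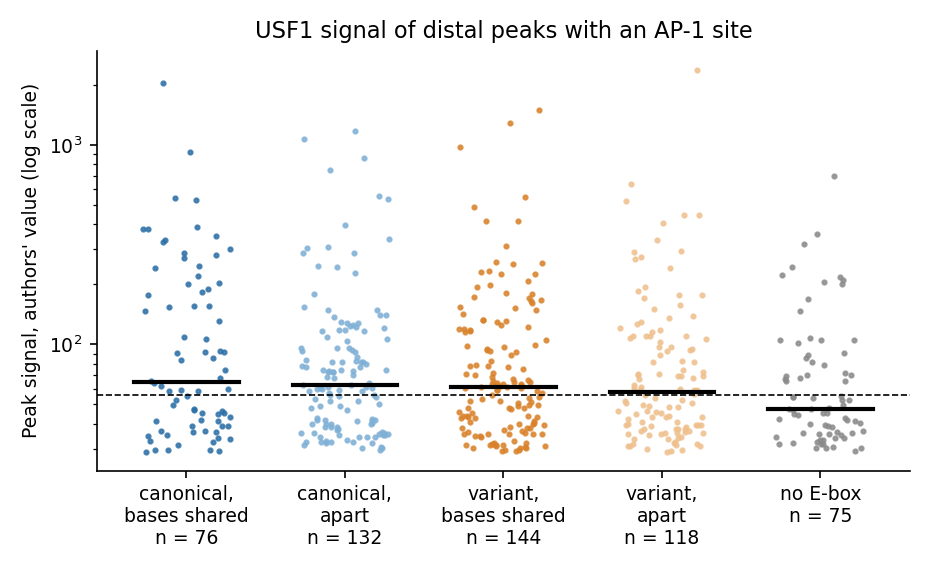
Signal of each of the 545 peaks (authors' value, log scale) by arrangement of AP-1 site and E-box, where variant is the CA-centred E-box; bars are medians and the dashed line is the median of all distal peaks. Medians run from 64.6 with a shared canonical E-box to 47.6 with no E-box, and the ranges overlap.

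The replicates could be compared at some of these peaks, by position relative to a gene. For 398 of the 545 (73.0%), each replicate's mm10 list held a region at the same distance, within 100 bp, from a boundary of the nearest gene in that build. Their median signal was 24.8 in replicate 1 and 27.4 in replicate 2, against 23.1 and 26.1 at 5101 matched distal peaks without an AP-1 site. The ratio of the median with an AP-1 site to that without was 1.074 in replicate 1 and 1.049 in replicate 2 (1.062 ± 0.017, SD, n = 2). Signal differed by more than 2-fold between replicates at 38 of the 398, and replicate 2 exceeded replicate 1 by a median of 0.20 on the log2 scale (SD over peaks 0.56). By arrangement, replicates 1 and 2 had medians of 30.1 and 30.8 for the shared run with a canonical E-box and 23.3 and 26.8 with a CA-centred one. The peaks with no E-box had the lowest medians in both, at 19.0 and 24.7.

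**Figure D5:**
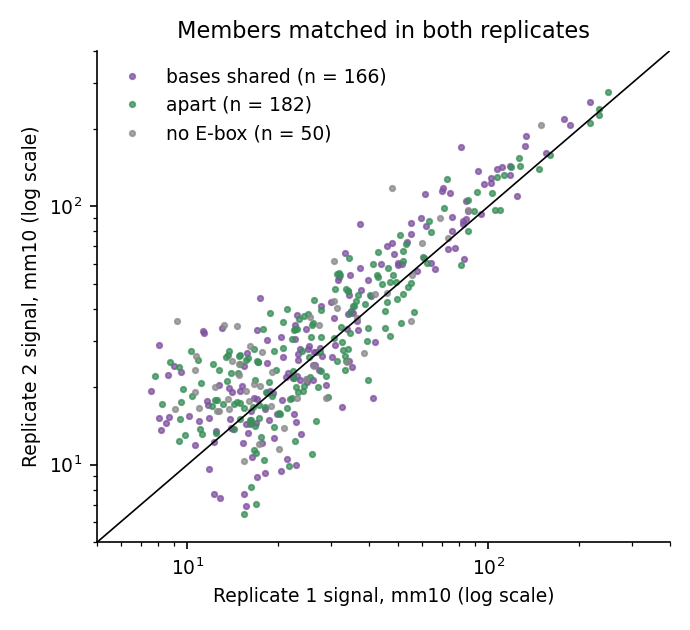
Signal in replicate 2 against replicate 1 (authors' values in mm10, log scales) at 398 peaks matched in both by gene-relative position, coloured by arrangement; the line marks equal values. The points lie along the line with replicate 2 higher by a median of 0.20 on the log2 scale, and 38 of 398 are over 2-fold apart.

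No difference in position from other distal peaks passed the test. Peaks with an AP-1 site were intronic in 47.9% (43.7 to 52.1) against 45.7%, intergenic in 49.9% against 50.8% and exonic in 2.20% (1.26 to 3.81) against 3.50%. Within 10 kb of a start lay 28.1% against 29.9%, and over 100 kb from any start 12.8% against 13.2%. None of these 5 shares passed (Fisher's exact test, adjusted p from 0.268 to 0.895). Their odds ratios ran from 0.621 for exonic to 1.09 for intronic peaks. The median distance to the nearest start was 22517 bp, against 21443 bp, and the median GC content of the windows was 49.5%, against 50.5%. With windows of 100 bp on each side, which take in more peaks, the intronic and exonic shares passed (odds ratios 1.20 and 0.492, Fisher's exact test, adjusted p = 0.0398 and 0.0196).

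The 545 peaks held no exact duplicates around the AP-1 site. Of the 41-bp stretches around their AP-1 sites, 1 occurred more than once in the genome, no 2 of the peaks had the same stretch, and no 2 summits lay within 100 bp of each other. Diverged copies of a repeat would count as different here, and repeats were not searched for. A second AP-1 copy was present in 29 windows and 3 or more copies in 3.

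No other transcription factor site examined was shown to differ in frequency between peaks with and without an AP-1 site. Of 11 strings searched on both strands with the AP-1 bases masked, 0 passed (Fisher's exact test, 0 also at an unadjusted p under 0.05, every adjusted p = 1). The PU.1 site GAGGAAGT, of a lymphoid and myeloid ETS factor, was present in 7 of 545 windows (1.28%, 0.62 to 2.63) and in 2.23% (1.91 to 2.60) of the others. The IRF string GAAANNGAAA was present in 4 (0.734%, 0.286 to 1.87) and in 1.44%, the octamer ATGCAAAT in 1.28% and 1.21%, and the NF-kB string GGGANTTTCC in 1.10% and 0.900%. The most frequent were the E-box hexamers CAGGTG, in 12.7% and 13.6%, and CAGCTG, in 10.3% and 9.56%, which E2A proteins bind. Masking removes hexamers that share bases with the AP-1 site, and does so in the 545 windows only. Without it, an alternative chosen after seeing the data, the direction of CAGGTG turned, with 17.6% against 13.6% (odds ratio 1.36, Fisher's exact test, p = 0.012, adjusted p = 0.132), and CAGCTG stood at 12.48% against 9.56% (odds ratio 1.35, Fisher's exact test, p = 0.0299, adjusted p = 0.164). The others were the ETS site CCGGAAGT, the RUNX site TGTGGTTT, the CRE TGACGTCA, the EBF string TCCCNNGGGA and the GC box GGGCGG, with odds ratios from 0.802 to 1.14.

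Extensions of the AP-1 site that other bZIP dimers use were not shown to differ in frequency between summits and places away from them. TGC before TGAGTCA, or its reverse complement, makes the longer site of MAF, NRF2 and BACH proteins, and was found at 26 of 580 AP-1 copies (4.48%, 3.08 to 6.49) against 3.24% of the 2158 copies 250 to 1000 bp away with enough flanking bases inside that range (odds ratio 1.40, Fisher's exact test, adjusted p = 0.323). An IRF half-site, GAAA, just before the AP-1 site or 4 bases after it, as in sites that BATF, JUN and IRF4 share, was found at 21 (3.62%, 2.38 to 5.47) against 3.57% (odds ratio 1.01, Fisher's exact test, adjusted p = 0.901).

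Of the 75 peaks with neither USF E-box, 33 had an AP-1 site that shared bases with another hexamer of the form CANNTG. This was CACCTG or its reverse complement in 22, as in Cabp1, and CAGCTG in 8. In the whole peak, beyond the window, 3 of the 75 held the canonical E-box and a further 10 the CA-centred one. The strongest of the 75 lay within introns of Cabp1, a calcium-binding protein gene (signal 701), and of 1700054N08Rik (356), then downstream of the start of Syt3, a synaptotagmin gene (318), and in an intron of Mgat4b, an N-glycan branching enzyme gene (244). In this order they lay 1167, 9993, 20781 and 2331 bp from the nearest start, so the peak in Cabp1 was close to the 1 kb limit. At Cabp1 the replicates had a signal of 149 and 206.

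The strongest peaks with an AP-1 site lay near genes of varied function. The first, with a signal of 2381, ranked 103 of 10624 and lay between genes, 5537 bp upstream of the nearest start, that of the zinc finger gene Zfp362. Its matched regions had a signal of 250 in replicate 1 and 277 in replicate 2. The second, at 2049, lay in an intron of AI480653. The next 2, at 1495 and 1285, lay between genes, upstream of Rftn1, which encodes the B-cell lipid raft protein raftlin, and of Fbxo11, a ubiquitin ligase subunit that targets BCL6. The latter was 130188 bp from the start and had 218 in replicate 1 and 254 in replicate 2.

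The 4 after these ranked from 423 to 557 among all peaks. One at 1171, nearest the start of the villin gene Vil1, lay in an exon of Usp37, a deubiquitinase gene, with 233 and 237 in the replicates. One at 1066 lay 77344 bp from the start of Actr2, an ARP2/3 complex gene, with 233 and 226. One at 975 lay 1751 bp upstream of Arhgap25, with 178 and 217. One at 919 lay in an intron of Ksr1, a scaffold of the RAF-MEK-ERK kinase cascade, with 187 and 207. Replicate 2 was higher at 3 of these 4 peaks and replicate 1 at the peak nearest Actr2.

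The last 4 of the 12 strongest stood near Ninj2 (864), Ccnl1 (748), Cabp1 (701) and Maml3 (636), which encode ninjurin 2, cyclin L1, the calcium-binding protein named above and a Notch coactivator. Further strong shared runs lay near Dusp22 (540), a phosphatase gene, and Tnfrsf13b (552), and in an intron of Sec24d at the peak nearest Mettl14 (528), an RNA methyltransferase subunit gene. Further strong CA-centred E-boxes apart from the AP-1 site lay in introns of Agfg2 (521) and of the ribonuclease inhibitor gene Rnh1 (444).

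Each of the 545 peaks was assigned to the nearest protein-coding start, which gave 523 genes, 2.35% of the 22225 on the chromosomes with peaks. Any distal peak was nearest to 20.9% of genes, or 4656. A single gene was nearest to more than 2 peaks with an AP-1 site, which was Ksr1 with 4, and 19 genes had 2, among them Ccr7, Cxcr4, Ebf1, Prkcb, Rftn1 and Map3k13. At Ksr1 the other 3 peaks were weaker, with signals of 70.1, 65.4 and 41.4; of the 4, the strongest and the weakest held a shared run with a canonical E-box and the other two had no E-box. The weakest had 8.07 in replicate 1 and 29.1 in replicate 2, more than 2-fold apart.

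Genes of 10 lists were examined as nearest genes, and 27 of the 184 list genes in the annotation (14.7%) were nearest to a peak with an AP-1 site. Of all genes, 2.35% were. Of the 184, 109 (59.2%) were nearest to any distal peak, against 20.9% of all genes. Among genes nearest to any distal peak, 24.8% of list genes and 11.2% of all genes were nearest to a peak with an AP-1 site. Counted over peaks, 31 of 266 distal peaks nearest to list genes held an AP-1 site (11.7%, 8.33 to 16.1), against 7.23% of all distal peaks. Apart from the NF-kB and lysosome lists, the interval of every single list took in 7.23%. No test was made on the lists. They were chosen with earlier results of these data known, so their excess over all genes is no independent result.

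Genes of the AP-1 family itself, the bZIP subunits that bind this site, were nearest to 2 such peaks among 17 distal peaks (11.8%, 3.29 to 34.3, against 7.23% of all distal peaks). One lay 6251 bp upstream of Jdp2, a JUN dimerization protein gene, with a signal of 110 (35.4 and 41.1 in the replicates) and a canonical E-box 15 bases away. The other lay 11703 bp upstream of Batf3, with 107 (47.2 and 31.6) and a CA-centred E-box 60 bases away. Of the MAF, CNC and BACH genes, 0 of 12 had such a peak, and 0 of the 9 distal peaks nearest to them held the site, an interval up to 29.9%. The USF and MiT list had 3 of its 6 genes in the annotation and 1 distal peak, which held no AP-1 site.

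B-cell transcription factor genes had 5 such peaks among 52 (9.62%, 4.18 to 20.6, against 7.23% of all distal peaks), at 4 of 20 genes. The strongest lay 18966 bp upstream of Irf4, a factor of germinal centre and plasma cells, with a signal of 244 (85.59 in replicate 1 and 79.97 in replicate 2) and a canonical E-box 10 bases from the AP-1 site. The peak nearest Irf8, a related factor, lay in an intron of Gm20388 and had 148 (53.2 and 71.4) and that in an intron of Aff3 had 117 and a shared run with a CA-centred E-box. The early B-cell factor gene Ebf1 held 2 intronic peaks at 59.9 (34.7 and 32.3) and 48.2 (26.4 and 24.1). Both replicates kept the peak of Irf4 above those of Ebf1. These sequences show the sites near Irf4, where they were apart, and in Aff3, where they shared bases.
Irf4, chr13:30822079-30822179: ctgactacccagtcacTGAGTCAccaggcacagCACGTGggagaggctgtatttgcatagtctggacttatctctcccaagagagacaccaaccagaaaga
Aff3, chr1:38614654-38614754: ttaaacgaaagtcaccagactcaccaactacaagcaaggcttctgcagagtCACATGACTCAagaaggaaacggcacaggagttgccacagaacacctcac

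Receptor and surface signalling genes of B cells had 4 such peaks among 31 (12.9%, 5.13 to 28.9, against 7.23% of all distal peaks). The strongest stood 3686 bp upstream of Tnfrsf13b, which encodes TACI, a receptor for BAFF and APRIL, with a signal of 552. Tnfrsf13c, which encodes the BAFF receptor, had one at 53.9 (19.0 and 16.8 in the replicates) with no E-box. The protein kinase C beta gene Prkcb, which acts below the B-cell receptor, held 2 intronic peaks at 48.1 and 39.8, the first with a shared run.

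Cytokine and NF-kB signalling genes had 8 such peaks among 51 (15.7%, 8.17 to 28, against 7.23% of all distal peaks), at 6 of 25 genes. The lymph node homing receptor gene Ccr7 held 2 intronic peaks at 267 (105 and 96.5 in the replicates) and 48.2 (21.5 and 22.7), the second with a shared run. Tnfaip3, which encodes the NF-kB inhibitor A20, had one 62582 bp upstream at 201 (69.2 and 89.8) with no E-box. The peaks nearest Il10, Cxcr4, Socs1 and Nfkbia, which encode a cytokine, a chemokine receptor, an inhibitor of cytokine signalling and an NF-kB inhibitor, had 103, 93.8, 73.1 and 48.4, each with a CA-centred E-box 9 to 21 bases away. A second peak nearest Cxcr4, 180320 bp from its start, had 30.4 and no E-box.

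Genes of MAPK feedback and the immediate early response had 6 such peaks among 50 (12%, 5.62 to 23.8, against 7.23% of all distal peaks), at 6 of 23 genes. These were Dusp2 at 97.3, Myc at 82.6, Dusp4 at 78.5, Ier3 at 53.7, Btg1 at 34.1 and Ier5 at 32.9. In 3 of the 6, nearest Dusp4, Ier3 and Myc, a CA-centred E-box ran into the AP-1 site. The one nearest Myc lay 495137 bp from its start, and within 50 kb of the start 3 of the 23 genes had such a peak. At Dusp4 the replicates had 41.5 and 18.1, over 2-fold apart.

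Genes of the lysosome and the vacuolar ATPase had 8 distal peaks, of which 4 held an AP-1 site (50%, 21.5 to 78.5, against 7.23% of all distal peaks). The peak in an intron of Ctsb, the cathepsin B gene, had a signal of 335 (113 and 132 in the replicates) and 3 CA-centred E-boxes, the nearest 4 bases from the AP-1 site. The peak 17193 bp upstream of Lamp2, a lysosomal membrane protein gene, had 104 (36.8 and 45.4) and a canonical E-box 13 bases away. In both replicates the peak in Ctsb was the higher of these 2. Such a small number of distal peaks leaves the share imprecise. The window in Ctsb shows the strongest of them.
Ctsb, chr14:63749623-63749723: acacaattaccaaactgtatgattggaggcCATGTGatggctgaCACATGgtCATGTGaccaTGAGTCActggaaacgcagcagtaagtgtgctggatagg

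The remaining lists had few. Of apoptosis and cell cycle regulators, 2 of 20 genes had such a peak, with 2 among 31 distal peaks (6.45%, 1.79 to 20.7, against 7.23% of all distal peaks). These lay nearest Bcl2l11, which encodes the death inducer BIM, at 287 (109 and 96.7 in the replicates) and Bcl2, which encodes its inhibitor, at 43.1 (13.6 and 21.1). Both lay over 50 kb from the gene's start. Of 18 circadian clock genes, 0 had one, and 0 of 16 distal peaks nearest to them held the site, an interval up to 19.4%.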

How the data were processed

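USF1 ChIP-seq regions of CH12.LX cells were analysed as the authors deposited them. Per the deposited readme files, the mm9 peak list was derived from both replicates' mm9 alignments, and each mm10 replicate list, of peaks and background, from that replicate's alignments and a file that is not described. The aligner, peak caller, threshold and depth are, in the sources used here, not given. Column 7 of the deposited lists was used as the signal, and column 9 of the deposited mm9 list, read as −log10 q, broke ties and served as an alternative measure. The summit was column 2 plus column 10. Windows came from the NCBIM37 genome, whose chromosome names matched the mm9 list, and starts from the protein-coding transcripts of Gencode vM1. Coordinates are 1-based mm9.

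Sites were searched as exact strings on both strands. The tests were Fisher's exact test, an exact McNemar test and an exact binomial test, all two-sided, with SciPy 1.17.1 and Benjamini-Hochberg adjustment within each family by statsmodels 0.14.6. The threshold was 0.05. Intervals (95%, Wilson) cover only counting error. The site search was tested on simulated sequences. No per-replicate mm9 list was used here. For replicate values, the distance of a summit from either boundary of its nearest gene was taken in mm9 (Gencode vM1) and looked up from the same gene's boundary in mm10 (RefSeq, GRCm38.p6), within 100 bp; no coordinate was converted, and the sequence of the matched regions was not checked. After moving the position by 2 kb, 8 of 545 peaks matched in place of 398.

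At the limit of the rule, the 3 peaks with an AP-1 site nearest beyond 1 kb lay 1027, 1111 and 1127 bp from a start with signals of 177, 85.8 and 52.6, and the 3 nearest within it at 989, 967 and 963 bp with 54.6, 32.0 and 29.2. Named peaks were the 12 strongest, the 4 strongest of each of 5 arrangements, and those nearest to a gene of the 10 lists, leaving out the 13 on chromosome 18; 1 further peak is not reported here. Of 190 list entries, 184 were found in the annotation. The regions, strings and lists were chosen with earlier results of these data known. The alternatives were other distal limits, window widths, a stricter signal, fewer chromosomes, other controls, and each replicate left out where it had values.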

Additional observations from a re-analysis of the deposited data

How the results depend on the processing

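The lower canonical share and the excess, over all distal peaks, of AP-1 sites that share no base with an E-box kept their direction and passed under every alternative run for them. TCA after a CA-centred E-box and AC did so as well. For the canonical share, the count without shared E-box copies lowers it by construction and is no support. Of the other results, those that moved are given as odds ratios. They compare peaks with and without the AP-1 site, except that shared bases and TCA after an E-box compare summits with places away from them, and the cause was not tested except where stated. Counting only E-box copies that share no base with the AP-1 site removes copies from 1 side by construction. It gave 0.338 for the canonical class, 0.607 for the CA-centred class and 7.36 for neither E-box. In peaks above the median signal, values were 1.41 for the CA-centred class, 2.44 for shared bases, 0.941 and 0.964 for signal with the canonical and with neither E-box, 0.951 for intronic, 1.14 for intergenic and 1.08 for over 100 kb. This setting tests fewer peaks. With 100 bp on each side, values were 1.57 for neither E-box, 1.20 for intronic and 0.492 for exonic peaks, and 1.32 for the ETS site, 0.863 for the octamer, 0.900 for NF-kB and 0.770 for the GC box. Without masking the AP-1 bases, chosen after seeing the data, CAGGTG had 1.36. With 25 bp, shared bases had 4.91 and TCA after a CA-centred E-box and AG had 2.77. At a distal limit of 5 kb, signal with neither E-box had 0.950 and the share within 10 kb 1.12, and without chromosomes 3, 11 and 16 the share over 100 kb had 1.10. No share or site whose direction turned passed the test under that setting, other than the CA-centred class (adjusted p = 1.6e-06, Fisher's exact test).

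Leaving out replicate 1 or replicate 2 gave a ratio of matched medians of 1.049 and 1.074, and the mm9 results could not be recomputed without a replicate, since that list joins both. No paired analysis was possible because there is 1 group of samples. Signal has no depth behind it here, so weak peaks carry an unknown counting error.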
